A study of Mus musculus with 12 samples.

Results

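The genes described here are 39 genes of glucose uptake, glycolysis, pyruvate use and the pentose phosphate pathway, among 43472 genes of a mouse embryo RNA-seq table. They were chosen by name, as the rows whose symbol is on the list, and each of the 39 was found in the table once. The list holds 3 glucose transporters, 10 genes of the upper (hexose) part of glycolysis, 9 of the lower (triose) part, 2 lactate dehydrogenases, 11 genes that carry pyruvate into mitochondria or use it there, and 4 genes of the pentose phosphate pathway. Of these, 33 reached a mean of at least 3.582 reads per 1000000 reads (CPM) over all libraries and were tested. The other 6 (Pfkfb3, Aldoc, Pklr, Ldhb, Pdk1 and Pdp1) lay below and are given by their levels only. Among the 33, Pfkm and Eno3 at morula, Pdk2 at morula and early blastocyst, and Pcx at early blastocyst were themselves below that level, so they entered the test through the stages where they are high.

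The libraries were made from CD1 embryos, an outbred mouse stock, whose zygotes received GFP mRNA, to show which were injected, together with either a negative control siRNA or an siRNA against Tdgf1. Tdgf1 encodes Cripto, a co-receptor of the growth factor Nodal. Embryos of both arms were collected at 3 stages: morula, early blastocyst and late blastocyst. This gives 6 groups of 2 libraries (n = 2), 12 libraries in all, with 10524640 to 13770264 reads in genes. All of the embryos were injected, and no uninjected group is used here. How long the injected siRNA lasts is not stated in the labels. The labels do not say whether the libraries of a group came from separate embryos or injections, nor how many embryos a library holds, so a p-value here sets a difference against the spread of these libraries alone, and that spread may be technical.

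Glycolysis splits 1 glucose into pyruvate through a chain of enzymes, most of which exist as several isoforms encoded by separate genes. Pyruvate can be reduced to lactate by lactate dehydrogenase, or enter mitochondria through the MPC1 and MPC2 carrier and be oxidised by the pyruvate dehydrogenase complex, which its kinases switch off. The pentose phosphate pathway branches off after hexokinase and yields NADPH and ribose. Cleavage-stage mouse embryos are known to live mainly on pyruvate and lactate, and their uptake of glucose is known to increase from the morula to the blastocyst.

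Before the results, the libraries themselves need a few values. The early blastocyst libraries numbered 1 and 2 stood apart in both siRNA arms. The summed level of 7 trophectoderm markers (Cdx2, Eomes, Gata3, Krt8, Krt18, Tfap2c and Elf5) was 3690 and 3429 CPM in the libraries numbered 1 (control, Tdgf1 siRNA) and 1652 and 1759 CPM in those numbered 2. The same sum was 541 to 776 CPM in the morula libraries, 1652 to 3690 CPM in all early and 5293 to 7559 CPM in all late blastocyst libraries. At the blastocyst stages it was mostly Krt8 (means of 227.6, 1177 and 2173 CPM at the 3 stages) and Krt18 (135.5, 982 and 3340 CPM). Eomes, Gata3 and Elf5 rose too, Cdx2 stood at 57.1, 115 and 113 CPM, and Tfap2c fell (153, 121.5 and 101 CPM). The sum of 6 epiblast markers, Tdgf1 among them, was 688 to 991, 782 to 894 and 326 to 360 CPM at the same stages, and that of 6 primitive endoderm markers 392 to 462, 233 to 293 and 309 to 373 CPM. The epiblast sum was mostly Nanog (399.7, 373 and 94.2 CPM) and Pou5f1 (263, 378 and 134 CPM), and Klf2 fell throughout (98.2, 42.5 and 22.8 CPM). Tdgf1 (19.8, 14.8 and 75.5 CPM), Sox2 (2.20, 14.1 and 10.9 CPM) and Fgf4 (4.44, 5.71 and 6.04 CPM) were higher at late blastocyst than at morula. The primitive endoderm sum was mostly Gata6 (means of 415, 243 and 230.3 CPM at the 3 stages), while Sox17 (0.066, 1.68 and 38.5 CPM) and Pdgfra (5.73, 23.7 and 56.6 CPM) were highest at late blastocyst, and Sox7 and Foxa2 were at 0 in the morula libraries. Of markers of cells outside the embryo, 10 of cumulus and granulosa summed to 13.5 to 23.2, 11.8 to 22 and 3.67 to 6.98 CPM, nearly all of it Amhr2. The 6 blood markers summed to 8.68 to 20.6, 9.03 to 40.3 and 1.47 to 9.71 CPM, of which Cd74 reached 39.1 and Hba-a1 3.88 CPM, while Hbb-bt was at 0 in every library. Within the early blastocyst these sums were lower in the libraries numbered 1 than in those numbered 2, at 11.8 and 14.6 against 22 and 20.8 CPM for cumulus and granulosa and 14.6 and 9.03 against 29.9 and 40.3 CPM for blood. In whole embryos a change in the number of cells of a type and a change in the RNA per cell cannot be told apart. The part of these markers in the stage differences below was not tested. The targeted gene, Tdgf1, stood at 42.6% to 83.7% of the same-numbered control in 5 of 6 pairs. The exception, at 116.5% (15.2 against 13.1 CPM), was the replicate 2 library labelled Tdgf1 siRNA at early blastocyst.

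Most genes of glycolysis differed between the morula and the late blastocyst, and they did not move as a block. Of the 33 tested genes, 16 were higher and 4 lower at early blastocyst than at morula (limma, adjusted p under 0.05), 12 were higher and 9 lower at late than at early blastocyst, and 20 were higher and 8 lower at late blastocyst than at morula. Stage differences were common in the whole table: 33.7% of the 10751 genes tested passed from morula to early blastocyst (19.7% higher, 14% lower), 44.7% from early to late blastocyst (27% higher, 17.7% lower) and 60.9% over the whole span (36.6% higher, 24.3% lower). Of the 33, Pfkm, Eno3, Pdk2 and Pcx, counted as higher in the second step, entered the test through the stages where they are high. Over the whole span the median log2 change was 0.67 for the 33 genes and 0.13 for all genes tested. Quantile normalization moved the split of the second step from 12 higher and 9 lower to 10 and 9. It was 9 and 11 in edgeR and 10 and 11 in DESeq2, which change the scaling and the test together. In all genes the share of calls that were higher was 60.4%, against 46.8%, 50.3% and 50.4% in these fits. By part of the pathway the median was 1.12 for the upper and 1.29 for the lower part of glycolysis, but -0.28 for the mitochondrial pyruvate genes. The 4 libraries of a stage and those of the next did not overlap for 20 genes (morula to early blastocyst), 19 genes (early to late) and 24 genes (whole span) of 33, against 33.7%, 43.6% and 58.9% of all genes tested. The 2 steps share the early blastocyst libraries, so each gene's values are given for each step side by side.

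**Figure D1:**
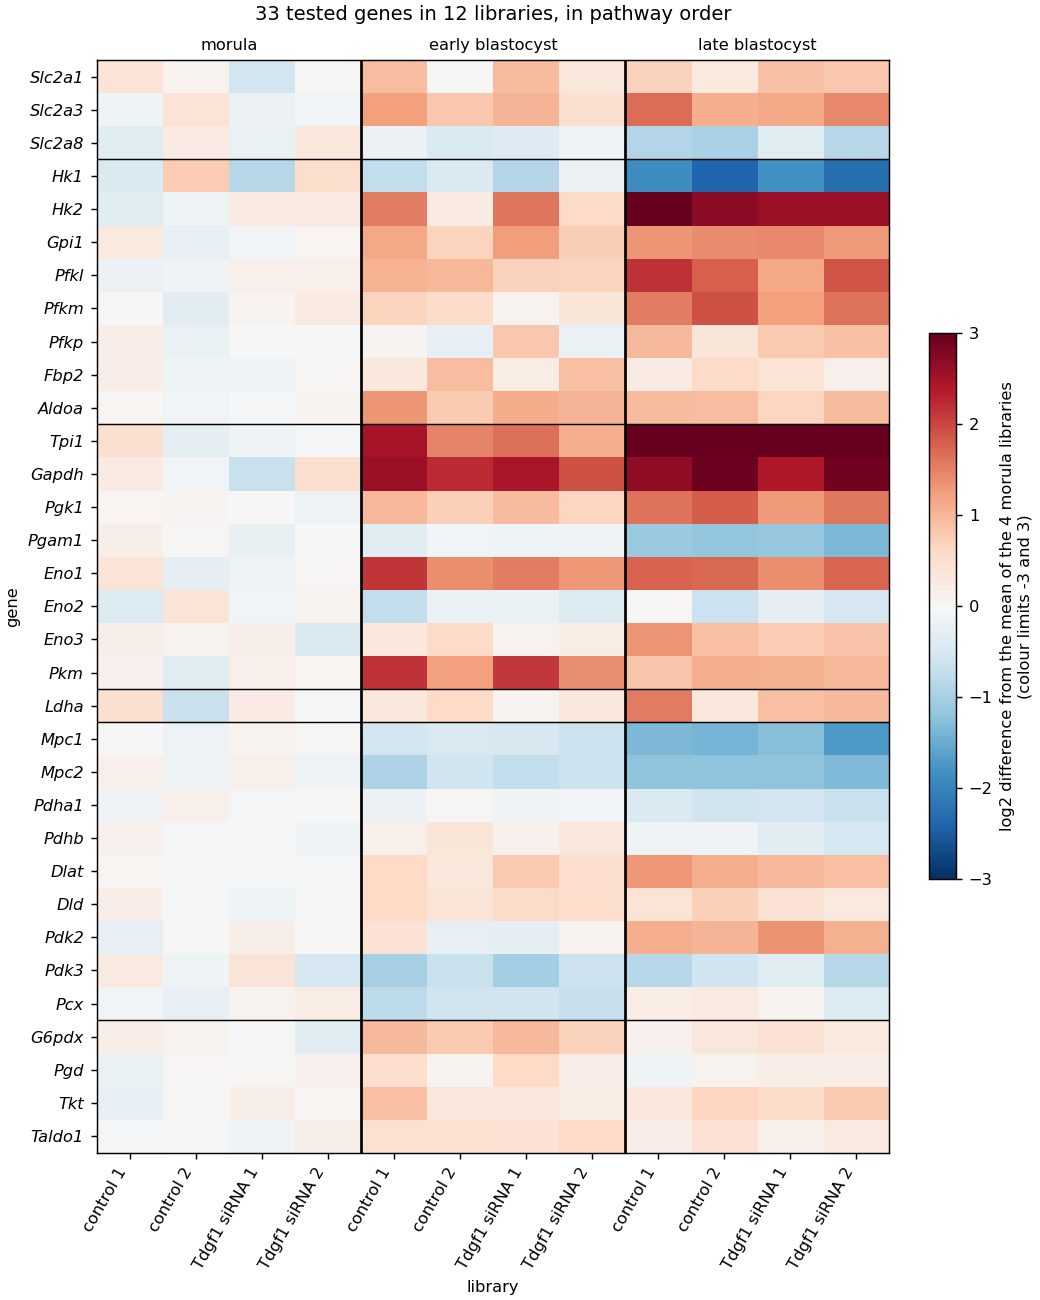
Heat map of the 33 tested genes (rows, in pathway order with lines between the parts) in the 12 libraries (columns, by stage), coloured by the log2 difference from the mean of the 4 morula libraries, with colour limits at -3 and 3. Tpi1, Gapdh and Hk2 are deep red at late blastocyst, Hk1 is the deepest blue, and Mpc1, Mpc2 and Pgam1 turn blue.

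The promoters of genes that moved in opposite directions can be set side by side. Among the tested genes, the 3 with the largest increases were Tpi1, Gapdh and Hk2, and 3 of the genes with decreases were Hk1, the counterpart of Hk2, and the carrier pair Mpc1 and Mpc2. Their promoter windows, 250 bases before to 50 bases after the annotated start, from RefSeq on GRCm38.p6, are printed 5′ to 3′ on the gene's strand so that the rising and falling genes can be compared. Capitals mark ACGTG, the core of the hypoxia response element, on either strand (CACGT is its reverse complement), and it overlaps the E-box CACGTG where that occurs. Hk1 and Mpc1 each have a second annotated start that is not printed.
Tpi1, chr6:124814109-124814408, minus strand: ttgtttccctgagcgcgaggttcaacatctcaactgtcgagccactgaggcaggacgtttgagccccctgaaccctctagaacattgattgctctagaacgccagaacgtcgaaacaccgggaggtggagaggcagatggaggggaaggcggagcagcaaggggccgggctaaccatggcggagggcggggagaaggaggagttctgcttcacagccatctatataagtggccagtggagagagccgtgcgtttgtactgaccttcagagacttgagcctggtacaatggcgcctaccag
Gapdh, chr6:125165724-125166023, minus strand: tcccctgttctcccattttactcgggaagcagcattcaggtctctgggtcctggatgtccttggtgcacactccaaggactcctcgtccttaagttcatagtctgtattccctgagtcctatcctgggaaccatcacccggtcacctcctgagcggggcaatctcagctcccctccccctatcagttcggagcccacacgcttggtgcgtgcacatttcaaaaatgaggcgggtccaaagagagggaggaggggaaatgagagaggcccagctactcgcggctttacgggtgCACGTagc
Hk2, chr6:82774405-82774704, minus strand: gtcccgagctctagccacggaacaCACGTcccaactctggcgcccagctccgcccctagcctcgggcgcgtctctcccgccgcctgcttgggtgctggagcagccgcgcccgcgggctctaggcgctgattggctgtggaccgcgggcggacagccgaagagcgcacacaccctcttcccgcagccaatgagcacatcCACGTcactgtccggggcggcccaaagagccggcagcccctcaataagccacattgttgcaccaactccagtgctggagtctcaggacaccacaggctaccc
Hk1, chr10:62340372-62340671, minus strand: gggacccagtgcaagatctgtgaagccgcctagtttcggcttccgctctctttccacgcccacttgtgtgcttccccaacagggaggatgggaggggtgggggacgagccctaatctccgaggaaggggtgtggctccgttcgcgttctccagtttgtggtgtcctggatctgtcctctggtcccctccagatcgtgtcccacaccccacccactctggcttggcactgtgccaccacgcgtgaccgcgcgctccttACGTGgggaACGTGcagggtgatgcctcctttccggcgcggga
Mpc1, chr17:8283537-8283836, plus strand: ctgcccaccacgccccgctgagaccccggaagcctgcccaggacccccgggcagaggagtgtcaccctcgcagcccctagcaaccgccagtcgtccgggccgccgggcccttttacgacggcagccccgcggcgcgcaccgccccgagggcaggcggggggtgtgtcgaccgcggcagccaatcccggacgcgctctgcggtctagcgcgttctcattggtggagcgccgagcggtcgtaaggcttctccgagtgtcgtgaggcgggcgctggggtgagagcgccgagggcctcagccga
Mpc2, chr1:165461010-165461309, plus strand: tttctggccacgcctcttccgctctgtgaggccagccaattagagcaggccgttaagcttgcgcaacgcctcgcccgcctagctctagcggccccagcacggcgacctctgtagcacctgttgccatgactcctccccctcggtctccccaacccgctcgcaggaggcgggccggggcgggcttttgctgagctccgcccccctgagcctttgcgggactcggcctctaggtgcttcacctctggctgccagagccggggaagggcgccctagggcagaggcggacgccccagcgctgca

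Hk2 holds ACGTG 2 times, Hk1 2 times and Gapdh 1 time, while the windows of Tpi1, Mpc1 and Mpc2 hold none. The motif is therefore in a window of the hexokinase that rose and of the one that fell. Of the 39 genes, 37 had a window (55 windows in all, since some have several starts), and ACGTG was in 38.2% of these windows against 19.6% of 32851 windows of all genes. In the first window of Ldha it occurred 5 times, a gene singled out after its count was seen. The same windows held the GC box GGGCGG in 52.7% against 35.7%, CCAAT in 43.6% against 37.4%, the E-box CACGTG in 10.9% against 7.15%. They held the TEAD site GGAATG in 14.5% against 14.7% and the estrogen related receptor site TCAAGGTCA in 0% against 0.423%, each searched on both strands. Base composition differed too, with a median of 60.7% G and C and 18 CpG in the 55 windows against 52.7% and 7 in all windows. A match is a string of letters in a window, with no binding measured here.

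In what follows, the 4 values of a stage are listed in the order control replicate 1, control replicate 2, Tdgf1 siRNA replicate 1, Tdgf1 siRNA replicate 2. Means carry the SD over these 4 libraries (n = 4), and log2 changes carry their standard error on the log2(CPM + 3.582) scale. The added 3.582 makes changes of low genes look smaller than they are. Coordinates are of GRCm38 from GENCODE release M21.

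Glucose enters the embryo through facilitative transporters, and the 3 on the list moved in different directions. Slc2a3 (chr6:122727809-122801640), encoding GLUT3, a high-affinity transporter known from the outer face of the trophectoderm, was read at 159, 235, 154 and 164 CPM in the morula libraries, 418, 308, 358 and 244 CPM in those of the early blastocyst and 571, 378, 387 and 486 CPM in those of the late blastocyst. Every library of the early blastocyst lay above every morula library, and the late blastocyst values overlapped the upper early ones. The increase was 2.56-fold over the whole span (log2 change 1.34 ± 0.18, adjusted p = 1.89e-05), of which the first step gave 0.88 ± 0.18 (adjusted p = 0.002) and the second 0.46 ± 0.18 (adjusted p = 0.0475). Slc2a8 (chr2:32972990-32982083), encoding GLUT8, a mainly intracellular transporter, was read at 65.3, 101, 72.7 and 107 CPM in the morula libraries, 74.98, 61.1, 63.7 and 77.3 CPM in those of the early blastocyst and 44.3, 41.4, 64.9 and 45.1 CPM in those of the late blastocyst. It fell over the whole span by 0.77 ± 0.17 on the log2 scale (adjusted p = 0.00164), with all late values below all morula values. Slc2a1 (chr4:119108711-119137983), encoding GLUT1, the broadly used basal transporter, was read at 25.01, 19.6, 10.96 and 18.6 CPM in the morula libraries, 37.2, 17.6, 38.1 and 23.6 CPM in those of the early blastocyst and 31.2, 22.8, 35.8 and 34.1 CPM in those of the late blastocyst. Its stages overlapped in each step, and it passed over the whole span only (log2 change 0.67 ± 0.23, adjusted p = 0.0204). That change was 1.10 (adjusted p = 0.0132) in Tdgf1 siRNA libraries alone and 0.24 (adjusted p = 0.568) in control libraries alone.

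These transporter calls differ in how far they hold when single libraries are left out. Here and below, leaving out a library of a stage outside the comparison moves only the shared spread and the adjustment, not the change itself. The second step of Slc2a3 lost its call without any 1 of morula Tdgf1 siRNA 1 and Tdgf1 siRNA 2, early blastocyst Tdgf1 siRNA 2 and control 2, late blastocyst Tdgf1 siRNA 2 and control 1 (adjusted p = 0.0574 to 0.213) and with same-numbered libraries averaged (adjusted p = 0.0791). The second step of Slc2a8 (log2 change -0.49 ± 0.17, adjusted p = 0.0354) lost it without any 1 of early blastocyst Tdgf1 siRNA 2 and control 1, late blastocyst Tdgf1 siRNA 2, control 1 and control 2 (adjusted p = 0.0714 to 0.149) and with the same averaging (adjusted p = 0.091). The whole span of Slc2a1 lost it without any 1 of morula Tdgf1 siRNA 1 and control 2, late blastocyst Tdgf1 siRNA 1 and control 1 (adjusted p = 0.0546 to 0.0889). Its first step (log2 change 0.55 ± 0.23, adjusted p = 0.0768) passed without any 1 of morula Tdgf1 siRNA 2, early blastocyst Tdgf1 siRNA 2 and control 2 (adjusted p = 0.0124 to 0.0486). The early blastocyst libraries numbered 1 held 1.83 times as much Slc2a1 RNA as those numbered 2. In edgeR and DESeq2 the second step of Slc2a3 was not called (adjusted p = 0.0916 and 0.0691).

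The 2 hexokinases, which trap glucose by phosphorylating it, went opposite ways. Hk2 (chr6:82725025-82774454), the inducible isoform of muscle and tumours, was read at 30.1, 35.4, 47.4 and 48.8 CPM in the morula libraries, 121.5, 48.1, 128 and 61.2 CPM in those of the early blastocyst and 342, 273, 256 and 258 CPM in those of the late blastocyst. All late blastocyst values lay above all earlier ones, and early blastocyst control replicate 2 lay within the morula range. The rise was 6.98-fold (log2 change 2.71 ± 0.25, adjusted p = 8.05e-07), with 0.99 ± 0.25 in the first step (adjusted p = 0.00771) and 1.72 ± 0.25 in the second (adjusted p = 0.000127). Hk1 (chr10:62268855-62379908), the constitutive isoform of most adult tissues, was read at 23.3, 58.05, 16.6 and 49.1 CPM in the morula libraries, 18.4, 23.3, 16.3 and 28.9 CPM in those of the early blastocyst and 6.42, 3.47, 6.81 and 4.06 CPM in those of the late blastocyst. The late values were the lowest in every case, at most 6.81 CPM, and the morula values spread widely, with both replicates numbered 2 above those numbered 1. Hk1 fell 7.09-fold over the whole span (log2 change -2.07 ± 0.32, adjusted p = 7.3e-05) and in the second step (log2 change -1.52 ± 0.32, adjusted p = 0.00173). Its first step (log2 change -0.55 ± 0.32, adjusted p = 0.197) passed without morula Tdgf1 siRNA 1 (adjusted p = 0.0397) only. At early blastocyst the libraries numbered 1 held 2.29 times the Hk2 RNA and 0.664 times the Hk1 RNA of those numbered 2, in both arms. With the Tdgf1 siRNA libraries alone the first step of Hk2 was not called (adjusted p = 0.123).

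Further down the upper part, Gpi1, which turns glucose 6-phosphate into fructose 6-phosphate, had 50.6 ± 8.77, 102 ± 21.99 and 135 ± 6.92 CPM at the 3 stages. It rose 2.67-fold (log2 change 1.37 ± 0.16, adjusted p = 7.15e-06), and its first step passed (log2 change 0.95 ± 0.16, adjusted p = 0.000695) with no overlap. The second step was close to the threshold (log2 change 0.42 ± 0.16, adjusted p = 0.0496) and lost its call without any 1 of morula Tdgf1 siRNA 1 and Tdgf1 siRNA 2, early blastocyst Tdgf1 siRNA 2 and control 2, late blastocyst Tdgf1 siRNA 1, Tdgf1 siRNA 2, control 1 and control 2 (adjusted p = 0.0584 to 0.194) and with same-numbered libraries averaged (adjusted p = 0.109). That step of Gpi1 was not called in edgeR or DESeq2 either (adjusted p = 0.109 and 0.106). Phosphofructokinase commits sugar to glycolysis, and its 3 genes all rose over the whole span. Pfkl, the liver-type subunit, was read at 3.36, 3.52, 5.09 and 5.12 CPM in the morula libraries, 12.6, 11.98, 9.03 and 8.802 CPM in those of the early blastocyst and 31.5, 23.7, 13.97 and 25.1 CPM in those of the late blastocyst. Each stage of Pfkl lay above the one before with no overlap (log2 changes 0.85 ± 0.18 and 0.91 ± 0.18, adjusted p = 0.00291 and 0.00127). Pfkm, the muscle-type subunit, had 2.63 ± 1.08, 4.703 ± 1.34 and 14.9 ± 3.59 CPM, with the change in the second step (log2 change 1.15 ± 0.17, adjusted p = 0.000184). Its first step (log2 change 0.42 ± 0.17, adjusted p = 0.0798) did not pass, except in DESeq2 (adjusted p = 0.0484), with a smaller pseudocount (0.0468) and in control libraries alone (0.0463). On the log2 scale that step was 0.78 in control and 0.05 in Tdgf1 siRNA libraries. Pfkp, the platelet-type subunit, had 8.52 ± 1.32, 9.999 ± 5.07 and 16.9 ± 3.57 CPM (log2 change 0.75 ± 0.23, adjusted p = 0.0109 over the whole span). The whole-span call of Pfkp was lost without late blastocyst control 1 (adjusted p = 0.0596). Its second step (log2 change 0.64 ± 0.23, adjusted p = 0.0337) was lost without any 1 of early blastocyst Tdgf1 siRNA 2 and control 2, late blastocyst Tdgf1 siRNA 1, Tdgf1 siRNA 2 and control 1 (adjusted p = 0.0672 to 0.153) and with same-numbered libraries averaged (adjusted p = 0.0784). In edgeR the second step of Pfkp was not called (adjusted p = 0.0605). Pfkm overlaps Senp1 on the other strand, and Pfkp overlaps Pitrm1. Senp1 stood at 46.4, 42.96 and 59.1 CPM and Pitrm1 at 35.8, 50.4 and 58.3 CPM at the 3 stages. As the labels do not say whether counting used strand, reads of the shared bases cannot be assigned.

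Aldoa, the aldolase that splits fructose 1,6-bisphosphate, was among the most abundant of these RNAs. It was read at 385, 346, 355 and 389 CPM in the morula libraries, 925, 636, 798 and 756 CPM in those of the early blastocyst and 715, 702, 578 and 719 CPM in those of the late blastocyst. The morula values formed a narrow band below all others, and early and late blastocyst overlapped. Aldoa rose 2.11-fold in the first step (log2 change 1.06 ± 0.12, adjusted p = 6.26e-05), and its second step (log2 change -0.19 ± 0.12, adjusted p = 0.23) passed, as a decrease, without early blastocyst control 2 (adjusted p = 0.0451) and without both early libraries numbered 2 (adjusted p = 0.0456). Fbp2, a fructose bisphosphatase that runs the phosphofructokinase step backwards and is known as the muscle enzyme, was read at 411, 329, 335 and 369.5 CPM in the morula libraries, 446, 688, 422 and 681 CPM in those of the early blastocyst and 429.6, 539.6, 478 and 403 CPM in those of the late blastocyst. It was higher at early blastocyst than at morula (log2 change 0.59 ± 0.17, adjusted p = 0.0156), and the early blastocyst libraries numbered 1 held 0.634 times as much as those numbered 2. The call was lost without any 1 of morula Tdgf1 siRNA 1 and control 2, early blastocyst Tdgf1 siRNA 2 and control 2 (adjusted p = 0.0518 to 0.062) and when same-numbered libraries were averaged (adjusted p = 0.0526). The second step of Fbp2 (log2 change -0.24 ± 0.17, adjusted p = 0.259) passed without early blastocyst Tdgf1 siRNA 1 (adjusted p = 0.0492), and its whole span (log2 change 0.35 ± 0.17, adjusted p = 0.0875) without either of early blastocyst Tdgf1 siRNA 1 and Tdgf1 siRNA 2 (adjusted p = 0.0468 to 0.0469). Pfkfb3, which makes the phosphofructokinase activator fructose 2,6-bisphosphate, was below the filter, with 8.305, 4.37, 12.2 and 4.302 CPM in the morula libraries, 1.41, 1.89, 0.574 and 0.383 CPM in those of the early blastocyst and 0.275, 0.0771, 0.786 and 0.0882 CPM in those of the late blastocyst. All 8 blastocyst values lay below all morula values. Aldoc, the brain aldolase, stood at 0.696 ± 0.968, 0.587 ± 0.0939 and 2.81 ± 1.01 CPM.

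**Figure D2:**
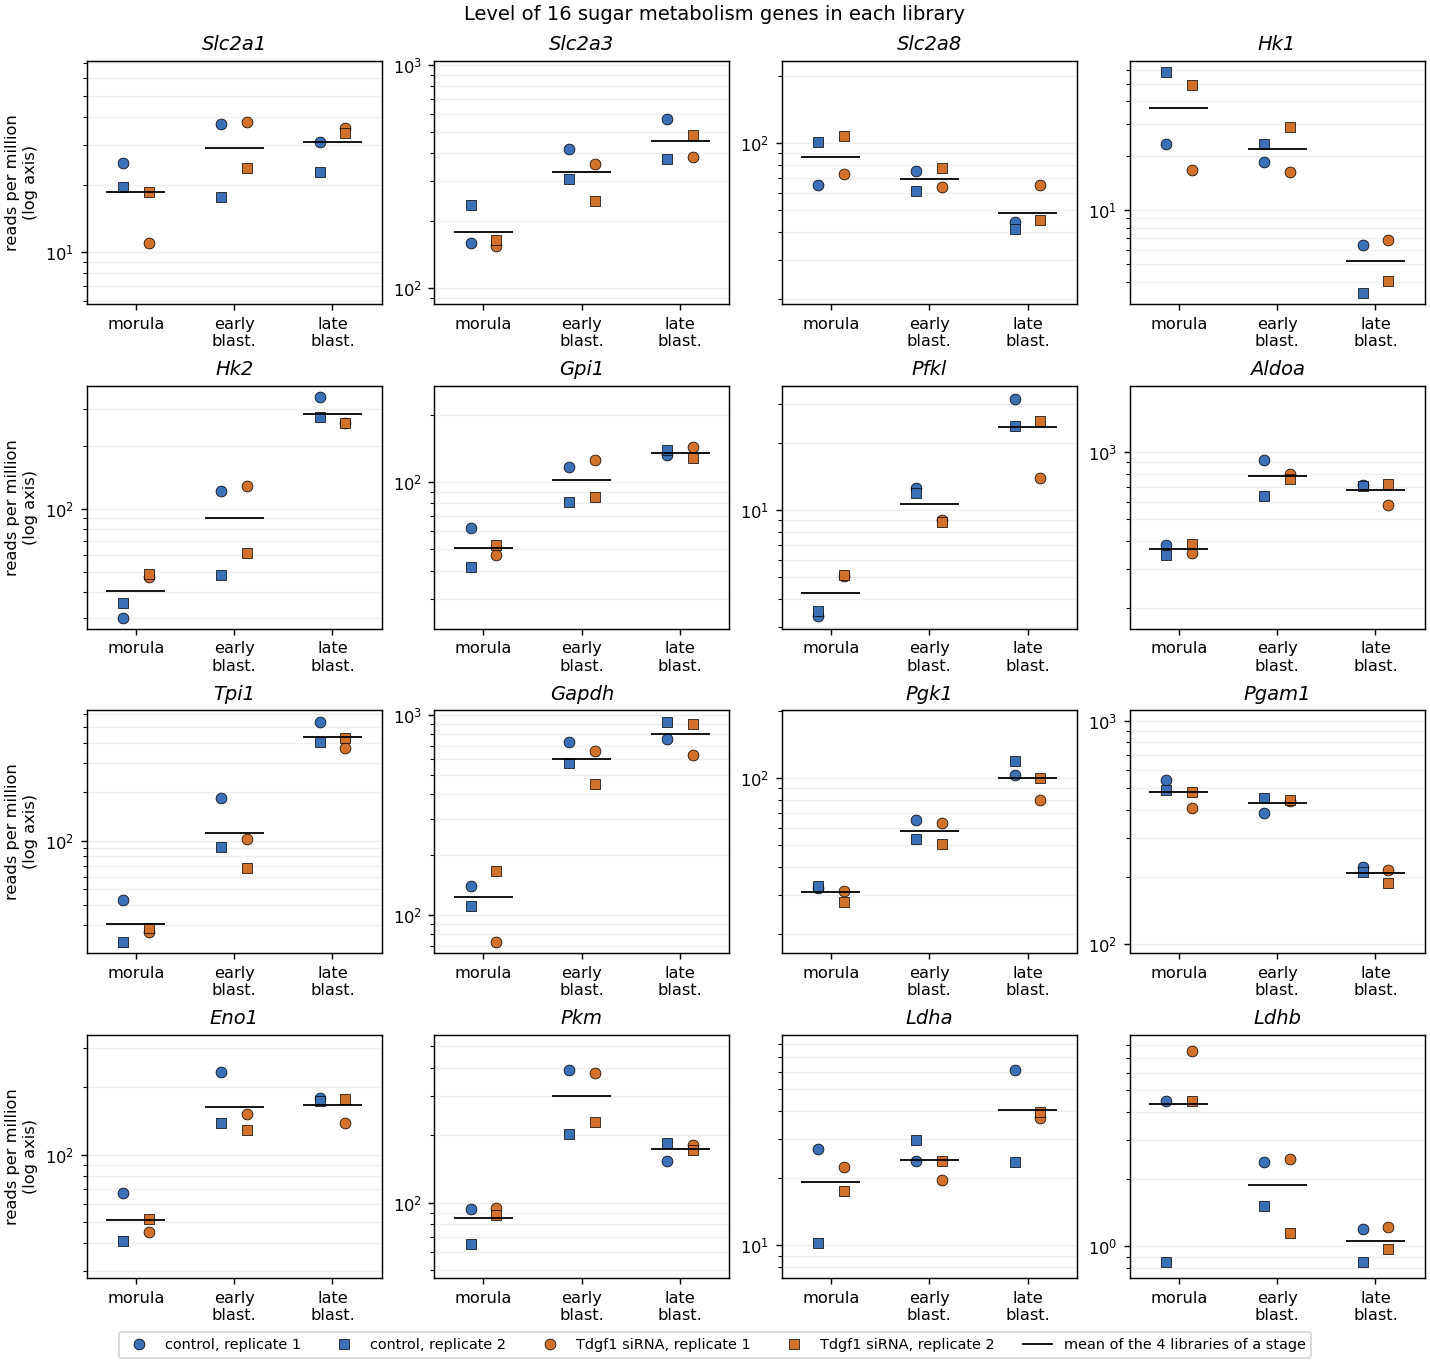
Level of 16 genes in each library, in CPM on a log axis, by stage, with control in blue, Tdgf1 siRNA in orange, circles for replicate 1, squares for replicate 2 and a line at the mean of the 4 libraries of a stage. Tpi1, Hk2 and Gapdh climb and Hk1, Pgam1 and Slc2a8 decline, and no difference between blue and orange points of a stage passed the test.

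In the lower part of glycolysis most enzymes rose, Tpi1 and Gapdh several-fold, while Pgam1 fell. Tpi1 (chr6:124810586-124814296), triose phosphate isomerase, was read at 42.9, 23.6, 27.3 and 28.8 CPM in the morula libraries, 183, 90.6, 103 and 67.7 CPM in those of the early blastocyst and 542, 403, 373 and 428 CPM in those of the late blastocyst. Each stage stood above the one before without overlap, for a 14.2-fold increase (log2 change 3.70 ± 0.22, adjusted p = 2.67e-08), split into 1.68 ± 0.22 and 2.02 ± 0.22 (adjusted p = 0.000131 and 1.38e-05). Gapdh (chr6:125161715-125166467), the next enzyme and a common reference gene in RNA assays, was read at 139, 111, 72.9 and 166 CPM in the morula libraries, 729, 569.9, 659.6 and 448 CPM in those of the early blastocyst and 759, 923, 630.4 and 897 CPM in those of the late blastocyst. The highest morula value was 166 CPM and the lowest blastocyst value 448 CPM. Gapdh rose 4.92-fold in the first step (log2 change 2.30 ± 0.22, adjusted p = 1.82e-05). The second step (log2 change 0.42 ± 0.22, adjusted p = 0.135) did not pass, except without either of morula Tdgf1 siRNA 1 and Tdgf1 siRNA 2 (adjusted p = 0.0492 to 0.0495). Gapdh has many near-identical copies in the genome, and the reads of 70 copies with at least 95% identity summed to 31.1 ± 5.30, 166 ± 39.9 and 214 ± 38.5 CPM at the 3 stages, mainly Gm13394. With the copies added, the whole-span fold was 6.62, against 6.56 for Gapdh alone.

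Pgk1, phosphoglycerate kinase, the first enzyme of the chain to yield ATP, was read at 32.1, 32.9, 31.3 and 27.7 CPM in the morula libraries, 64.9, 53.4, 63.01 and 50.8 CPM in those of the early blastocyst and 104, 119, 79.6 and 99.5 CPM in those of the late blastocyst. Its stages did not overlap and it rose in both steps (log2 changes 0.83 ± 0.13 and 0.75 ± 0.13, adjusted p = 0.000458 and 0.000531). Pgam1, phosphoglycerate mutase, sits directly after it in the pathway and went the other way, with 541, 492, 408 and 482 CPM in the morula libraries, 385, 452, 436 and 443 CPM in those of the early blastocyst and 220.4, 210.2, 215 and 187 CPM in those of the late blastocyst. Morula and early blastocyst overlapped, and all late values were below all earlier ones. The level fell 2.06-fold in the second step (log2 change -1.03 ± 0.10, adjusted p = 7.32e-06). Eno1 (chr4:150236721-150248879), the main enolase, was read at 67, 40.95, 44.9 and 51.5 CPM in the morula libraries, 234, 138, 152 and 129 CPM in those of the early blastocyst and 180.0, 173, 138 and 177 CPM in those of the late blastocyst. It rose 3.19-fold in the first step (log2 change 1.59 ± 0.18, adjusted p = 4.54e-05) and its blastocyst stages overlapped (log2 change 0.07 ± 0.18, adjusted p = 0.786). The near-identical copies Eno1b and Gm4735 summed to 28.5, 98.3 and 92.6 CPM at the 3 stages, and Eno1 with them rose 3.29-fold in the first step against 3.19-fold alone. Eno3, the muscle enolase, had 2.304 ± 1.06, 3.62 ± 1.01 and 7.87 ± 2.07 CPM and rose in the second step (log2 change 0.66 ± 0.18, adjusted p = 0.00843), a call not made with the control libraries alone (adjusted p = 0.0618) or the Tdgf1 siRNA libraries alone (0.0763), or without both early libraries numbered 1 (0.0578). Eno2, the neuronal enolase, had 6.24 ± 2.31, 3.86 ± 1.26 and 4.08 ± 1.66 CPM and passed in neither step.

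Pkm (chr9:59656368-59679375), pyruvate kinase, which makes pyruvate and ATP, peaked at the early blastocyst. It was read at 93.2, 65.5, 94.7 and 88.3 CPM in the morula libraries, 394, 203, 379 and 228 CPM in those of the early blastocyst and 154, 185, 180.4 and 172 CPM in those of the late blastocyst. All early values were above all others, and the early libraries numbered 1 were 1.79 times those numbered 2. Pkm rose 3.52-fold in the first step (log2 change 1.73 ± 0.20, adjusted p = 5.8e-05) and fell 1.74-fold in the second (log2 change -0.73 ± 0.20, adjusted p = 0.00946). The decrease was not called when both early libraries numbered 1 were left out (adjusted p = 0.104), while the increase was. Nor was the decrease called in control libraries alone (adjusted p = 0.0701) or Tdgf1 siRNA libraries alone (adjusted p = 0.0771). Pklr, the liver and red cell pyruvate kinase, stood at 1.12, 4.28, 0.776 and 3.57 CPM at morula and at 0 in the 2 late blastocyst libraries numbered 2, which allows up to 0.231 and 0.265 CPM (3 reads). Pklr overlaps Hcn3 on the other strand, which reached 5.31 CPM in its highest library.

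Of the lactate dehydrogenases, the A form is known to favour making lactate. Its gene Ldha (chr7:46841475-46855627) was read at 27.1, 10.3, 22.4 and 17.5 CPM in the morula libraries, 23.8, 29.5, 19.7 and 23.9 CPM in those of the early blastocyst and 60.7, 23.5, 37.3 and 39.5 CPM in those of the late blastocyst. The stages overlapped in both steps, and Ldha passed over the whole span (log2 change 0.93 ± 0.27, adjusted p = 0.00877) but not without late blastocyst control 1 (adjusted p = 0.0536). Its second step (log2 change 0.60 ± 0.27, adjusted p = 0.0865) passed without either of morula control 2, late blastocyst control 2 (adjusted p = 0.0132 to 0.0499). Ldhb, the B form, known to favour lactate use, was below the filter, with 4.48, 0.855, 7.51 and 4.49 CPM in the morula libraries, 2.397, 1.52, 2.46 and 1.15 CPM in those of the early blastocyst and 1.19, 0.849, 1.22 and 0.971 CPM in those of the late blastocyst. The late values were low in all 4 libraries, and 3 of the 4 morula values were higher than every later one, with morula control replicate 2 as the exception.

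**Figure D3:**
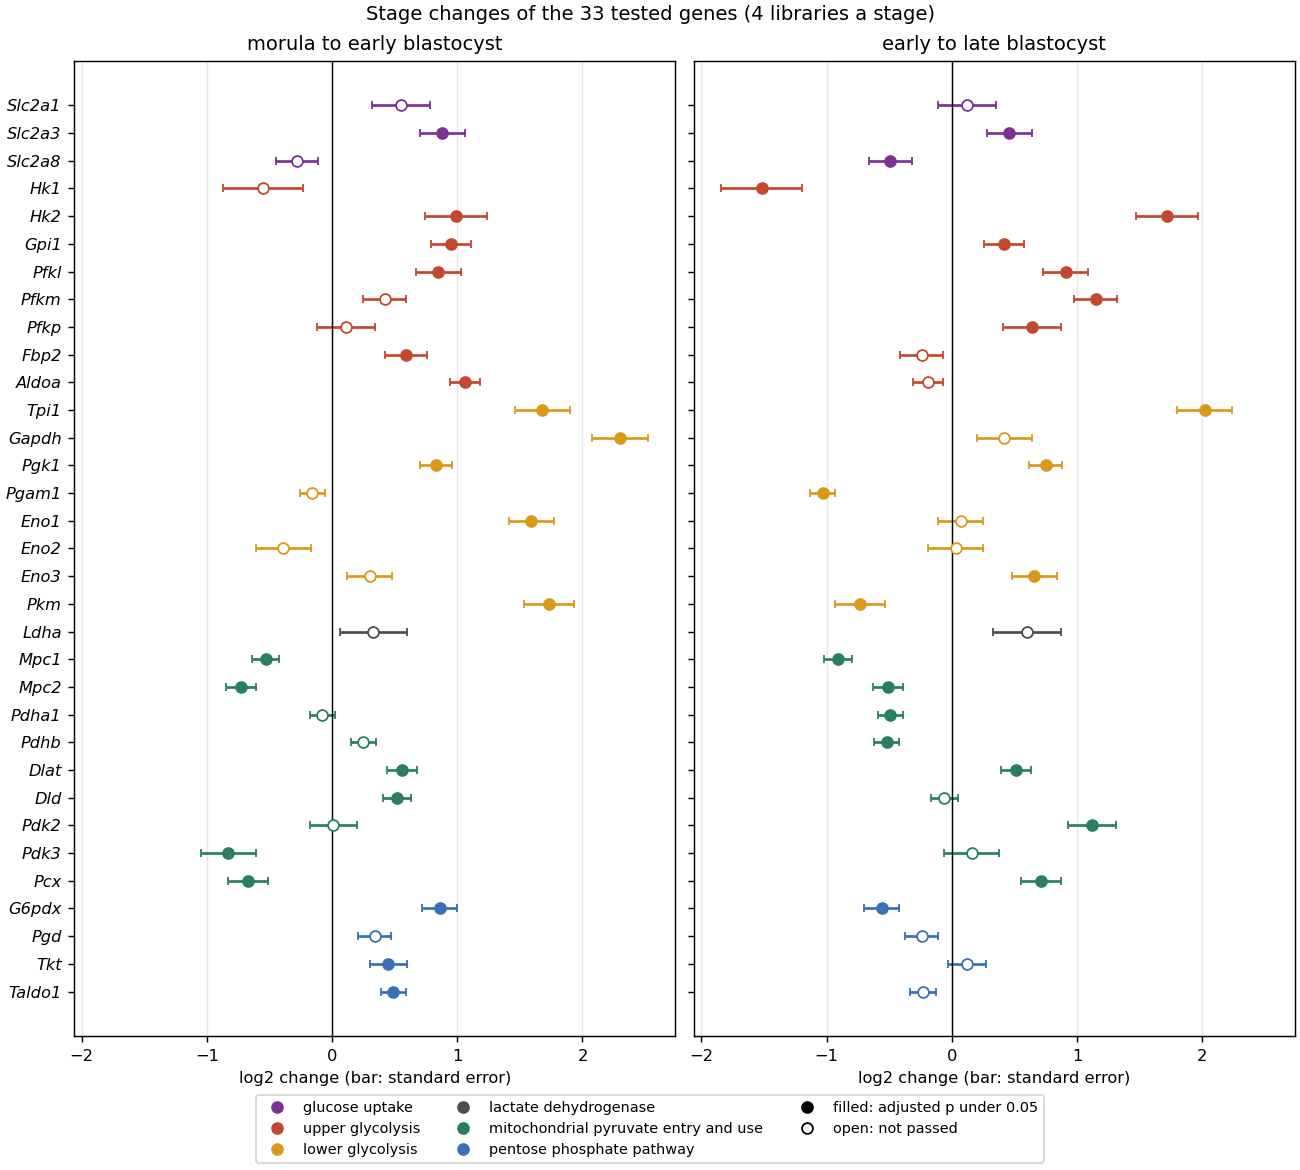
Log2 change of each tested gene from morula to early blastocyst (left) and from early to late blastocyst (right), with bars of 1 standard error, colour for the part of the pathway and filled points where the adjusted p is under 0.05. Tpi1 lies far right in both panels, Mpc1 and Mpc2 lie left of 0 in both, and Pkm lies right of 0 in the first and left in the second.

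The genes that take pyruvate into mitochondria fell while most of glycolysis rose. Mpc1 (chr17:8282904-8297661), a subunit of the mitochondrial pyruvate carrier, was read at 599, 538, 647 and 617 CPM in the morula libraries, 407, 438, 426 and 384 CPM in those of the early blastocyst and 233, 226, 244 and 178 CPM in those of the late blastocyst. The 3 stages formed separate bands, falling 2.73-fold in all (log2 change -1.44 ± 0.11, adjusted p = 1.91e-07). Mpc2 (chr1:165460637-165481214), the partner subunit, was read at 282, 227, 280.3 and 225 CPM in the morula libraries, 131, 165, 150.3 and 159.7 CPM in those of the early blastocyst and 108, 107, 107 and 98.1 CPM in those of the late blastocyst. It too fell in both steps without overlap, 2.42-fold in all (log2 change -1.24 ± 0.12, adjusted p = 1.2e-06). Mpc1 overlaps the noncoding 4930506C21Rik on the other strand, which stood at 383 ± 39.1, 276 ± 12.9 and 137 ± 19.2 CPM, and reads of the shared bases cannot be assigned without strand.

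The pyruvate dehydrogenase complex was not uniform. Pdha1 and Pdhb, the subunits of its first enzyme, had 479.8 ± 40.9, 453 ± 28.2 and 321 ± 22.02 CPM and 427 ± 29.8, 508 ± 44.6 and 353 ± 46.96 CPM. Both fell in the second step (log2 changes -0.49 ± 0.10 and -0.52 ± 0.10, adjusted p = 0.0017 and 0.00114). Dlat, the acetyltransferase core, was read at 53.7, 51.7, 50.04 and 48.7 CPM in the morula libraries, 79.5, 65.7, 90.5 and 73.3 CPM in those of the early blastocyst and 130.3, 113, 104 and 97.9 CPM in those of the late blastocyst. It rose in both steps (log2 changes 0.56 ± 0.12 and 0.51 ± 0.12, adjusted p = 0.0029 and 0.00357). Dld, the dehydrogenase that the complex shares with others, had 136 ± 13.8, 196 ± 12.1 and 189.7 ± 24.4 CPM and rose in the first step (log2 change 0.52 ± 0.11, adjusted p = 0.00306). The whole-span call of Pdhb (log2 change -0.28 ± 0.10, adjusted p = 0.0312) was lost without any 1 of morula Tdgf1 siRNA 1, Tdgf1 siRNA 2 and control 1, late blastocyst Tdgf1 siRNA 2, control 1 and control 2 (adjusted p = 0.0513 to 0.113) and with same-numbered libraries averaged (adjusted p = 0.105). Pdha1 overlaps Map3k15 on the other strand, which stood at 218, 173 and 162 CPM at the 3 stages.

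The kinases that switch the complex off went different ways. Pdk3, the most abundant of the inhibitory kinases at morula, had 12.7 ± 4.37, 5.401 ± 1.34 and 6.46 ± 1.72 CPM and fell in the first step (log2 change -0.83 ± 0.22, adjusted p = 0.0116), a call lost without morula Tdgf1 siRNA 1 (adjusted p = 0.0556). Its whole span (log2 change -0.67 ± 0.22, adjusted p = 0.0179) was lost without any 1 of morula Tdgf1 siRNA 1 and control 1, late blastocyst Tdgf1 siRNA 2 and control 1 (adjusted p = 0.0647 to 0.095). Pdk2 was read at 0.8398, 1.71, 2.33 and 1.74 CPM in the morula libraries, 3.47, 0.799, 0.738 and 2.07 CPM in those of the early blastocyst and 7.42, 6.94, 9.78 and 7.41 CPM in those of the late blastocyst. All 4 late values lay above all others, and Pdk2 rose 4.46-fold in the second step (log2 change 1.12 ± 0.19, adjusted p = 0.000356). It was under the filter at morula and early blastocyst and was tested only because of these late values, so the filter favoured this rise. Pdk1 reached 1.59 to 2.38 CPM at late blastocyst against at most 1.15 CPM before, and the phosphatase Pdp1 stayed between 0.183 and 4.45 CPM with overlap at all stages. Pcx, pyruvate carboxylase, which turns pyruvate into oxaloacetate, had 4.82 ± 1.22, 1.68 ± 0.3295 and 5.15 ± 1.67 CPM. It fell in the first step (log2 change -0.67 ± 0.16, adjusted p = 0.00678) and rose in the second (log2 change 0.71 ± 0.16, adjusted p = 0.00317). The first of these was not called in control libraries alone (adjusted p = 0.134), nor the second in Tdgf1 siRNA libraries alone (adjusted p = 0.143). Pcx overlaps Lrfn4 on the other strand, which reached 5.49 CPM in its highest library.

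The pentose phosphate genes were highest on average at early blastocyst, except Tkt. G6pdx, the NADPH-yielding entry enzyme, was read at 26.7, 24.8, 22.8 and 17.8 CPM in the morula libraries, 48.5, 41.97, 48.5 and 39.2 CPM in those of the early blastocyst and 25.3, 29.9, 31.9 and 28.9 CPM in those of the late blastocyst. All early values lay above all others, with a 1.94-fold increase (log2 change 0.86 ± 0.14, adjusted p = 0.00061) and a 1.54-fold decrease after it (log2 change -0.56 ± 0.14, adjusted p = 0.00608). G6pdx overlaps Ikbkg on the other strand, which stood at 26.8, 22.9 and 24 CPM. Taldo1, transaldolase, had 223 ± 19.6, 312 ± 16.1 and 267 ± 23.1 CPM and rose in the first step (log2 change 0.49 ± 0.10, adjusted p = 0.00302). Tkt, transketolase, had 34.4 ± 4.44, 49.2 ± 12.1 and 53.2 ± 7.76 CPM and rose in the first step (log2 change 0.45 ± 0.15, adjusted p = 0.0361), a call lost without any 1 of morula Tdgf1 siRNA 1, Tdgf1 siRNA 2 and control 1, early blastocyst Tdgf1 siRNA 1, Tdgf1 siRNA 2 and control 1 (adjusted p = 0.0505 to 0.161) and with same-numbered libraries averaged (adjusted p = 0.107). That step of Tkt was 0.73 (adjusted p = 0.037) in control and 0.18 (adjusted p = 0.618) in Tdgf1 siRNA libraries. Pgd, the second NADPH-yielding enzyme, had 191 ± 18.7, 245 ± 41.8 and 206 ± 21.6 CPM and did not pass in the first step (log2 change 0.34 ± 0.13, adjusted p = 0.0541), except without either of early blastocyst Tdgf1 siRNA 2 and control 2 (adjusted p = 0.0187 to 0.022) or without both (adjusted p = 0.00498). The whole-span call of Taldo1 (log2 change 0.26 ± 0.10, adjusted p = 0.0425) was lost without any 1 of morula Tdgf1 siRNA 1, control 1 and control 2, early blastocyst control 1 and control 2, late blastocyst Tdgf1 siRNA 1, Tdgf1 siRNA 2 and control 2 (adjusted p = 0.0502 to 0.174). It was also lost with same-numbered libraries averaged (adjusted p = 0.124), in edgeR (0.404) and in DESeq2 (0.493).

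Which isoform carries a step was compared on the scale of CPM per kb of exon, so that genes of unequal length can be set side by side. Hk2 made up 62.6 ± 14.1% of hexokinase RNA (Hk1 plus Hk2) in morula libraries, 83.0 ± 9.39% in early and 98.7 ± 0.407% in late blastocyst libraries. In single libraries the Hk2 share was 46.5% to 80.3% for morulae, 74.7% to 91.8% for early and 98.2% to 99.1% for late blastocysts. With the longest transcript as length in place of all exons, the means were 48.7%, 73.3% and 97.7%, so which of them led at morula depends on the length used. The log2 ratio of Hk1 to Hk2, of CPM + 3.582, was -0.25 ± 0.83 at morula and -5.04 ± 0.28 at late blastocyst. The difference was -4.79 (two-sided exact permutation p = 0.0286, the smallest that 4 against 4 libraries can give in 70 assignments). Here and below, permutations take the libraries as independent, also those with the same number, so their p-values for stage differences may be too small.

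Slc2a3 went from 43.3 ± 4.36% of the 3 transporters to 60.2 ± 5.37% and 72.01 ± 5.92%, while Slc2a8 went from 47.3 ± 5.58% to 29.1 ± 5.76% and 17.8 ± 4.60%. Slc2a1 stayed near 10% (9.44%, 10.8% and 10.2%). The order at morula, Slc2a8 with Slc2a3, is within their spread. Ldha was 70.7 ± 11.5% of Ldha plus Ldhb at morula, 85.7 ± 5.75% and 94.4 ± 1.41% later. At morula the control libraries averaged 79.6% Ldha and the Tdgf1 siRNA libraries 61.7%. Among the pyruvate dehydrogenase kinases, Pdk3 held 89.0 ± 4.89% of the RNA in morulae, 77.4 ± 11.9% in early and 47.5 ± 4.72% in late blastocysts, where Pdk2 held 47.7 ± 3.99%. These last values do not differ beyond their spread. Among phosphofructokinases no gene led by more than the spread at morula (Pfkl 31.5 ± 5.23%, Pfkm 36.8 ± 7.86%, Pfkp 31.7 ± 6.36%). At late blastocyst Pfkm held 48.3 ± 6.71%, Pfkl 37.6 ± 5.87% and Pfkp 14.2 ± 4.48%. With the longest transcript as length the order of the first pair turned, to 38.7 ± 6.34% for Pfkm and 46.3 ± 6.10% for Pfkl, so which of them led depends on the length used. Aldoa and Pkm held at least 99.5% and 90.8% of their pairs with Aldoc and Pklr in every library. Eno1 held 77.7 ± 7.14%, 90.8 ± 3.20% and 85.3 ± 2.79% of the enolases.

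In all, 13 isoform pairs were tested in 3 stage comparisons (39 tests). The smallest possible p was reached by 18, and 8 pairs did so over the whole span. After Benjamini-Hochberg adjustment over the 39 none passed, with a lowest adjusted p of 0.0619. For a pair at the smallest possible p (0.0286), the adjusted value depends on how many of the 39 tests reach that p. It does not depend on how large the difference of that pair is, so not passing says nothing about the pair. Among the whole-span differences at that p were Ldha over Ldhb (log2 ratio 1.54 ± 0.31 at morula, 3.17 ± 0.47 at late blastocyst), Pkm over Pklr (3.92 ± 0.63 and 5.53 ± 0.21), Eno1 over Eno2 (2.48 ± 0.61 and 4.49 ± 0.35) and Pdk1 over Pdk3 (-2.04 ± 0.43 and -0.86 ± 0.27). The ratio of Mpc1 to Mpc2 was 1.24 ± 0.15 at morula and 1.04 ± 0.14 at late blastocyst (exact permutation p = 0.0857, adjusted p = 0.119). The difference in the Pfkl to Pfkp ratio over the whole span was 1.48 in control and 0.54 in Tdgf1 siRNA libraries.

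**Figure D4:**
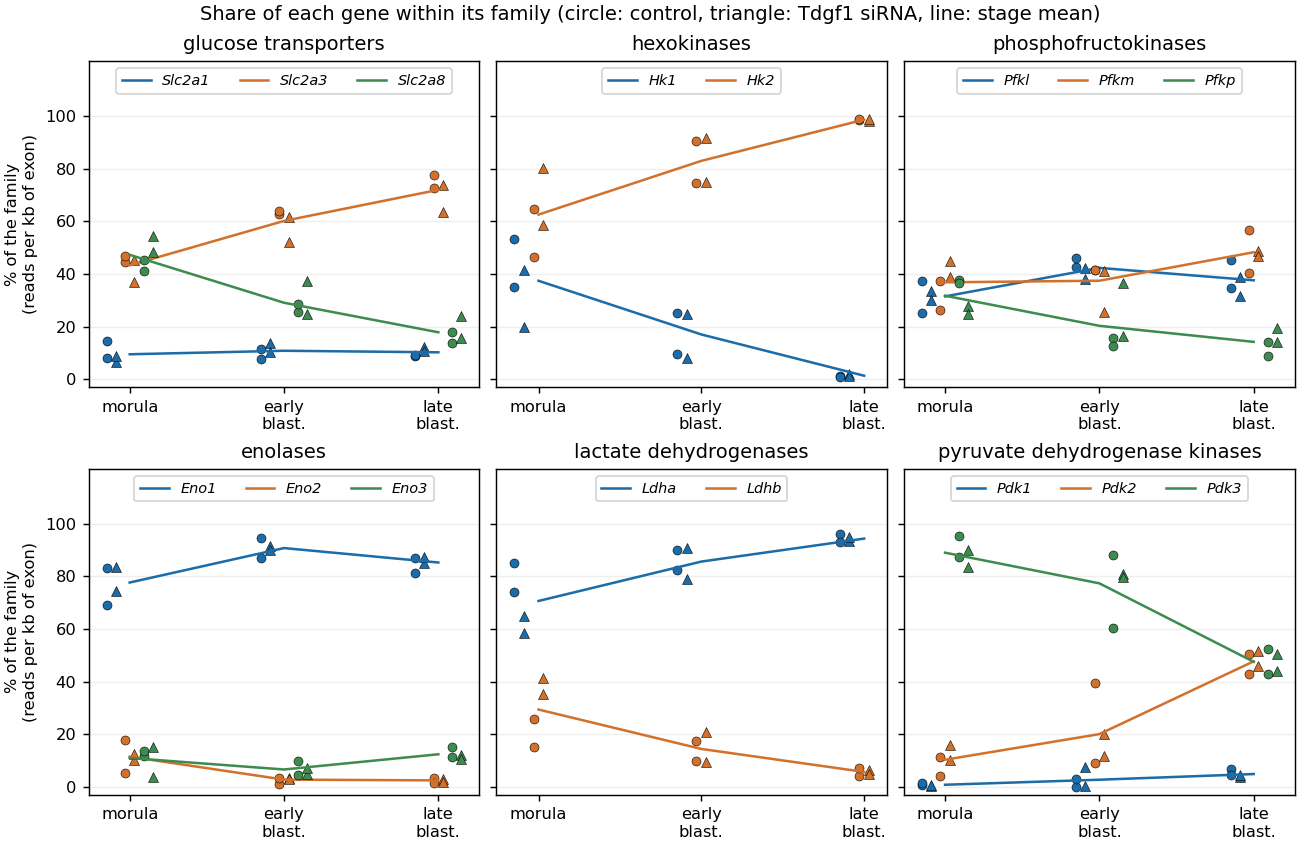
Share of each gene within its family, in percent of reads per kb of exon, at the 3 stages, with circles for control and triangles for Tdgf1 siRNA libraries and lines through the stage means. Hk2 reaches 98.2% to 99.1% at late blastocyst, and the lines of Pdk2 and Pdk3 meet there.

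No difference between Tdgf1 siRNA and control embryos passed the test for these genes. Of the 33 tested, 0 passed at morula, early blastocyst or late blastocyst, or in the average over stages, and 0 had an unadjusted p under 0.05 in limma. The same was true of the table: 0% of the 10751 genes passed in each comparison. In limma 194, 112, 221 and 268 genes (1.8%, 1.04%, 2.06% and 2.49%) had an unadjusted p under 0.05. Each share is below the nominal rate of 0.05, so this fit gave fewer small p-values than the absence of any effect would give. The 0 of 33 is therefore not evidence that the siRNA had no effect. In edgeR's quasi-likelihood test 0 genes passed in each comparison, and in DESeq2 1 gene, not among the 33, passed at late blastocyst. With same-numbered libraries of a stage paired, 0 of the 33 passed and 2, 1, 1 and 5 had an unadjusted p under 0.05. Of all genes tested, 6.17%, 4.57%, 6.48% and 8.52% did so in the same paired fit. In that fit 5, 5, 3 and 0 genes of the table passed. With 2 libraries against 2, the standard errors of the 33 log2 changes at a stage ran from 0.14 to 0.45. To pass after adjustment over 10751 genes a change must be several times its standard error. Differences well above that size could therefore also go uncalled.

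The smallest unadjusted p-values give the scale of what was seen. At morula Slc2a1 stood at 25.0 and 19.6 CPM in control and 10.96 and 18.6 CPM in Tdgf1 siRNA libraries (log2 change -0.52 ± 0.32, adjusted p = 1), and G6pdx (-0.31 ± 0.20) and Pgam1 (-0.22 ± 0.15) came next. At early blastocyst Tpi1 stood at 183 and 90.6 against 103 and 67.7 CPM (log2 change -0.61 ± 0.31, adjusted p = 1), so that each Tdgf1 siRNA library was below its same-numbered control but the arms overlapped. There Tkt (-0.33 ± 0.22) and Pfkm (-0.37 ± 0.25) followed, and these values include the replicate 2 library labelled Tdgf1 siRNA, whose Tdgf1 was not lower. At late blastocyst Pdhb stood at 386 and 396 against 337 and 295 CPM (log2 change -0.31 ± 0.15, adjusted p = 1), followed by Pfkl (-0.46 ± 0.25) and Pcx (-0.39 ± 0.23). In the average over stages the smallest were Eno3 (-0.28 ± 0.15), Tpi1 (-0.33 ± 0.18) and Pdhb (-0.15 ± 0.08), each at an adjusted p of 1. Medians over the 33 genes were -0.02, 0.00, -0.10 and -0.03, beside 0.01, 0.00, 0.02 and 0.01 for all genes tested.

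Whether the siRNA effect itself changed with stage was tested by a moderated F test. Of the 33 genes 0 passed and 0 had an unadjusted p under 0.05 (smallest 0.106, for Pfkl), and of all genes 0 passed and 97 had an unadjusted p under 0.05. In the 13 isoform ratios, permuting arms within stages (216 assignments) gave unadjusted exact p-values from 0.213, for Pfkl to Pfkp, upwards, and a lowest adjusted p of 0.879.

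**Figure D5:**
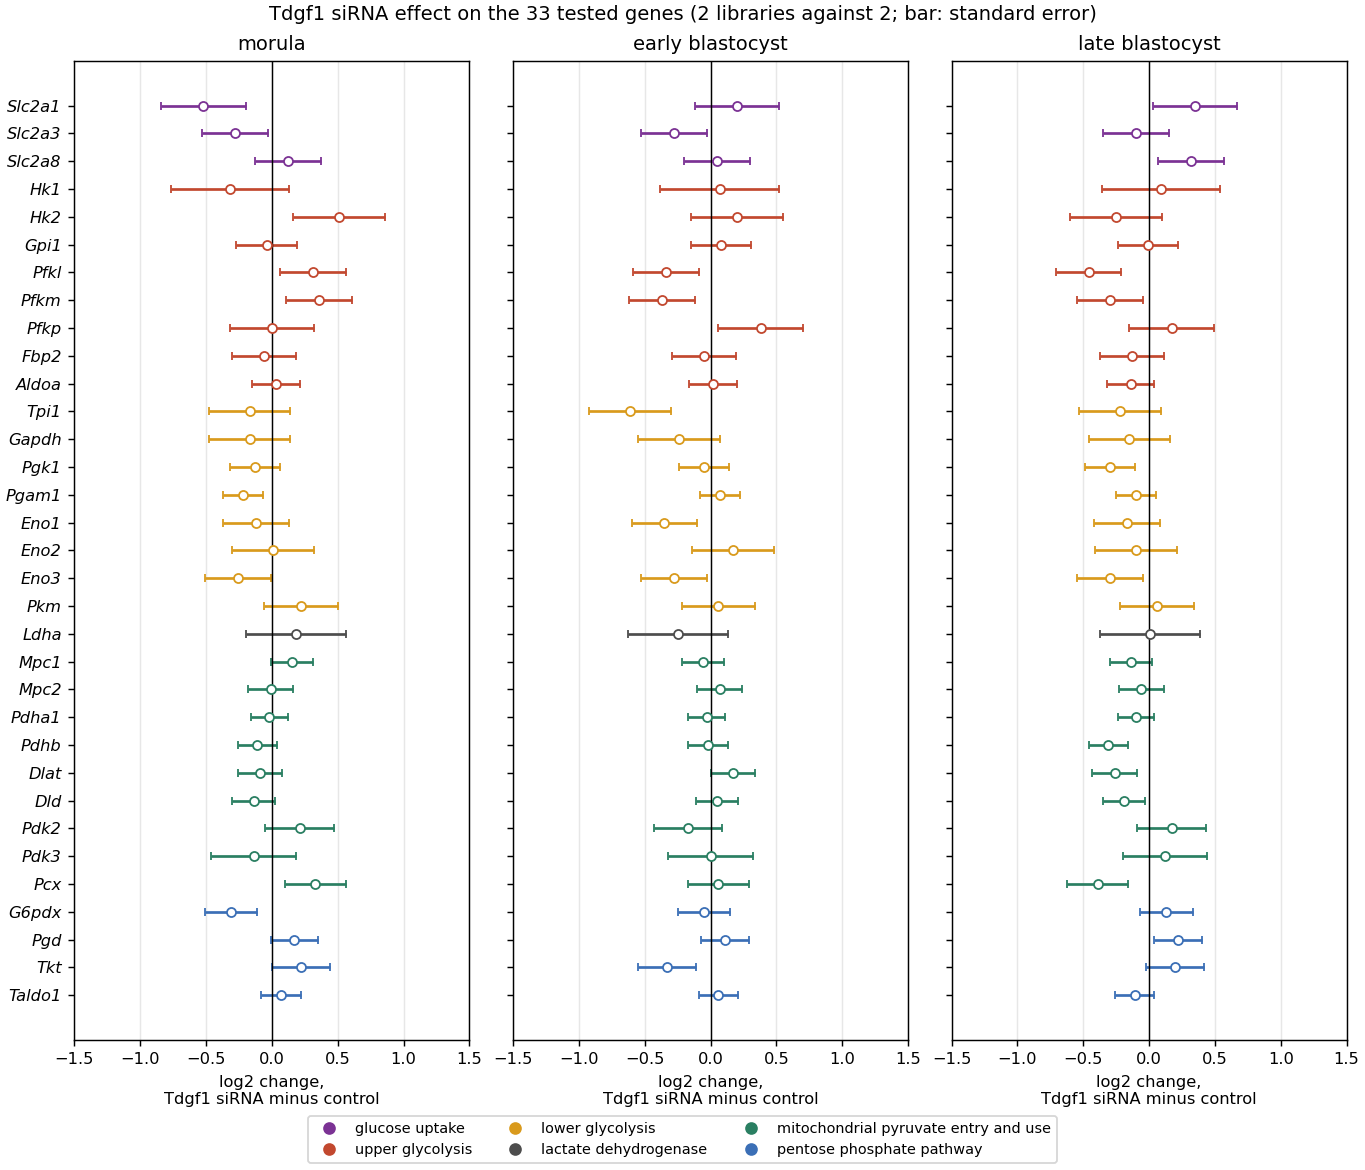
Log2 change, Tdgf1 siRNA minus control, of each tested gene at each stage, with bars of 1 standard error and colour for the part of the pathway. All points are open because none passed, and all lie between -0.61 and 0.51.

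Genes next to these pathways give the surroundings, from lists compiled with earlier results of these data known and read under the main scaling only. Their counts stand beside 33.7%, 44.7% and 60.9% of all genes tested that passed in either direction in the first step, the second step and over the whole span. List genes under the filter at a stage, such as Slc2a12 and Txnip at morula, entered the test through the stages where they are high. The list for the tricarboxylic acid cycle, which burns the acetyl-CoA made from pyruvate, rose broadly. This list also holds Acly, Aco1, Idh1 and Slc25a1, which are not enzymes of the mitochondrial cycle. Of 20 listed genes, all tested, 17 were higher and 0 lower at early blastocyst than at morula, 13 higher and 1 lower (Sucla2) in the second step, and 17 higher and 0 lower over the whole span (median log2 change 1.28, against 0.13 for all genes). Idh3a, a subunit of isocitrate dehydrogenase, went from 144 to 393 and 542 CPM (log2 change 1.88 ± 0.13, adjusted p = 9.03e-08). Sdhd, an anchor subunit of succinate dehydrogenase, stood at 64.2, 129 and 237 CPM (log2 change 1.83 ± 0.16) and the citrate carrier Slc25a1 at 9.03, 32.8 and 34.5 CPM (log2 change 1.58 ± 0.21). In the second step Suclg2 changed by 0.83 ± 0.11, and in the first Suclg1 by 1.15 ± 0.12 on the log2 scale. Mpc1 and Mpc2, which admit pyruvate to the same organelle, fell over the same span.

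Glycogen genes changed mainly in the second step. Of 13 tested (18 listed), 3 were higher and 2 lower in the first step, 11 higher and 1 lower in the second, and 11 higher and 2 lower over the whole span. Ugp2, which makes UDP-glucose, stood at 35.1, 77.8 and 205 CPM (log2 change 2.43 ± 0.16, adjusted p = 6.57e-08). The phosphoglucomutase Pgm2 stood at 1.23, 6.64 and 29.9 CPM (log2 change 2.74 ± 0.27) and the glycogen phosphorylase Pygb at 4.504, 8.76 and 33.7 CPM (log2 change 2.23 ± 0.24). Gyg, glycogenin, the primer of glycogen, rose in the second step (log2 change 1.65 ± 0.17). The 2 that fell were Gaa, the lysosomal glucosidase (166, 108 and 49.9 CPM), and Pgm2l1 (10.1, 2.501 and 2.46 CPM).

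Genes of the shuttles that pass cytosolic NADH to mitochondria moved both ways. Of 9 tested (10 listed), 5 were higher and 2 lower in the first step, 2 higher and 2 lower in the second, and 6 higher and 3 lower over the whole span. The second step, with 4 of 9, was thus at the share of all genes. Gpd1l, a glycerol 3-phosphate dehydrogenase, was at 1471, 691 and 99.96 CPM (log2 change -3.86 ± 0.19, adjusted p = 6.94e-09), and its mitochondrial partner Gpd2 at 289.9, 222 and 141 CPM (log2 change -1.02 ± 0.11). The malate-aspartate genes Mdh1 (53.8, 169 and 253 CPM, log2 change 2.14 ± 0.12), Got1 (111, 258 and 308 CPM, log2 change 1.45 ± 0.13) and Slc25a13 (16.8, 45.5 and 53.96 CPM, log2 change 1.55 ± 0.23) rose, and Slc25a12 fell (log2 change -0.86 ± 0.18).

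Of other transport genes, 6 of 17 were tested. Of these, 2 rose in the first step, 4 in the second and 5 over the whole span, with none lower. The first step, with 2 of 6, was thus at the share of all genes, and Slc2a12 was tested only through its late values. Txnip, a glucose-responsive brake on glucose uptake, went from 1.69 ± 2.61 CPM at morula, with 0 in its lowest library, to 3.82 ± 1.29 and 47.0 ± 8.60 CPM (log2 change 3.35 ± 0.24, adjusted p = 1.07e-07). Its relative Arrdc4 stood at 5.55, 6.69 and 33.9 CPM (log2 change 2.01 ± 0.19), and both changed mainly in the second step (log2 change 2.77 ± 0.24 and log2 change 1.83 ± 0.19). The transporter Slc2a12 (1.57, 1.94 and 10.2 CPM), the lactate carrier Slc16a1 (42.2, 65.9 and 66.7 CPM) and its partner Bsg (419.7, 687 and 1029 CPM) also rose over the whole span (log2 change 1.34 ± 0.24, log2 change 0.63 ± 0.16 and log2 change 1.30 ± 0.15).

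Of other glycolysis and gluconeogenesis genes, 12 of 27 listed (26 in the table) were tested. In the first step 4 were higher and 0 lower, at the share of all genes. In the second 6 were higher and 2 lower, and over the whole span 8 were higher and 1 lower. The muscle mutase Pgam2 stood at 10.9, 33.05 and 52.5 CPM (log2 change 1.92 ± 0.21, adjusted p = 3.55e-06), opposite in direction to Pgam1 and at lower CPM. Fbp1 (4.67, 7.81 and 22.6 CPM) and the glucose 6-phosphate carrier Slc37a4 (1.39, 3.95 and 11.5 CPM) rose over the whole span. G6pc3 rose in the second step (log2 change 1.74 ± 0.19), and Pfkfb4, a relative of Pfkfb3, was the 1 that fell (14.2, 12.8 and 3.38 CPM, log2 change -1.35 ± 0.20). Hkdc1 rose in the first step (log2 change 0.81 ± 0.24) and fell in the second (log2 change -0.89 ± 0.24).

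In the list of other pyruvate dehydrogenase genes and malic enzymes, 8 of 12 listed (11 in the table) were tested, with 3 higher and 1 lower in the first step, 0 higher and 1 lower (Lias) in the second, and 2 higher and 2 lower over the whole span. The malic enzymes Me1 (78.4, 197 and 150.4 CPM) and Me2 (12.1, 39.1 and 36 CPM) rose in the first step (log2 change 1.20 ± 0.24 and log2 change 1.48 ± 0.24). The phosphatase Pdp2 fell (60.2, 38.95 and 30.6 CPM, log2 change -0.89 ± 0.18). In the list of other pentose phosphate and nucleotide sugar genes, 12 of 16 were tested, with 2 higher and 5 lower in the first step, 2 higher and 3 lower in the second, and 5 higher and 5 lower over the whole span. The hexosamine branch, which makes UDP-N-acetylglucosamine, went both ways over the whole span. Gfpt1 (43.1, 18.6 and 15.2 CPM), Gnpnat1 (497, 426 and 107 CPM) and Uap1 (177, 119 and 46.9 CPM) fell, and Pgm3, whose enzyme acts between the last pair, rose (27.1, 38.9 and 44.1 CPM, log2 change 0.62 ± 0.17, adjusted p = 0.00572). Pgls, of the pentose phosphate pathway, rose (19.7, 40.1 and 83.9 CPM), and Tktl1 fell (22.7, 12.8 and 3.57 CPM). Prps1 fell in the first step (log2 change -0.97 ± 0.17) and Rpia rose in the second (log2 change 1.27 ± 0.20).

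Of 25 regulators of glucose metabolism 22 were tested, with 3 higher and 2 lower in the first step, 7 higher and 5 lower in the second, and 8 higher and 5 lower over the whole span. The list as a whole, at 5, 12 and 13 of 22, did not stand above all genes in the first step or over the whole span, so its genes are given for their own values. Hif1a, the oxygen-sensing factor that binds the element printed in the promoters above, stood at 31.5, 58.9 and 91.4 CPM (log2 change 1.44 ± 0.18, adjusted p = 1.13e-05). Mycn, a driver of growth, stood at 5.997, 10.2 and 79.9 CPM (log2 change 3.13 ± 0.25) and Prkag2, a subunit of the energy sensor AMPK, at 9.31, 10.9 and 41.4 CPM (log2 change 1.76 ± 0.23). The AMPK catalytic gene Prkaa1 fell in the second step (104, 102 and 41.2 CPM). Esrrb (log2 change -0.78 ± 0.18) and Igf2r (log2 change -0.99 ± 0.13) fell in the first step. In none of these lists did a gene pass in an siRNA comparison.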

How the data were processed

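Per the labels' protocols, SMARTer Ultra Low Input RNA and NEBNext Ultra DNA kits were used. The submitters' processing notes list HISAT2 2.1.0, Cufflinks, HTSeq, edgeR and mm10, with no role given. The authors deposited 1 table for 12 libraries headed RPKM per the file headers. Its values are instead CPM divided by a constant of 3.582: 100.0% were whole multiples of 1 read within 0.01 reads, whatever the gene, and every column summed to 279173.646. Levels are given as CPM, and counts of whole reads were recovered. A count of 0 allows up to 3 reads, 0.218 to 0.285 CPM, which covers counting error only. The test had been planned for RPKM and was kept, since it suits CPM.

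Changes were tested with limma 3.58.1 (trend) in R 4.3.3 on log2(deposited value + 1), a pseudocount of 3.582 CPM, for 10751 genes whose mean reached 1 deposited unit. All 12 libraries entered 1 fit of 6 group means (6 residual, 7.55 prior degrees of freedom), adjusted by Benjamini-Hochberg over all genes at 0.05. Stage comparisons average both arms (4 libraries a stage). The fit was also run on data simulated for the first step, with libraries drawn independently. That run does not bear on the siRNA comparisons or on libraries that deviate together. Isoform ratios were compared by two-sided exact permutation. edgeR 4.0.16 and DESeq2 1.42.0 on the recovered reads, other filters, pseudocounts and scalings, each arm alone and leaving out each library were alternatives. Each arm alone was a comparison within the fit of all 12 libraries, so its p-values use the spread of both arms. Leaving out both early blastocyst libraries of a number was added after seeing the data.

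Within a stage, control and siRNA libraries with 1 number deviated together from their groups at morula (r = 0.458) and early blastocyst (r = 0.593). At late blastocyst r was 0.101. The late value lies within the range found between stages, so that check pairs the libraries at morula and early blastocyst only. No label says what a number marks. The fit described above has no block of the number, so its p-values take the 12 libraries as independent. So do the permutations of the isoform ratios. The limma p with same-numbered libraries averaged is printed beside each call that it ends. Between stages the correlations were -0.151 to 0.138.

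Exon lengths and coordinates come from GENCODE M21 (GRCm38). Of the 39 symbols 38 matched 1 gene and Aldoa matched 2, of which the one with more transcripts was used. Near-identical copies were found with BLAST 2.17.0 at 90% identity over 300 bases and summed at 95%. Promoters come from RefSeq (GRCm38.p6), which held none for Slc2a3 and Pdp1 in the table used here. Genes were named by a rule: every member, with values per library for isoform families and for the 5 largest called changes of a stage comparison, the 3 smallest p-values of an siRNA comparison, and up to 3 called genes per pathway list and comparison. The members, lists and pairs were chosen with earlier results of these data known. Figures used Python 3.11.15, numpy 2.4.6, pandas 2.3.3 and matplotlib 3.10.9.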

Additional observations from a re-analysis of the deposited data

How the results depend on the processing

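Of 69 called stage results of single genes, 42 kept their call in every alternative run that tested the gene, 27 lost it in at least 1, and none turned direction. Genes under the filter at 5 deposited units, among them Pdk2, Pfkl, Pfkm and Eno3, were not tested in that run, which is not counted as a loss. The count of called genes among the 39 was 20, 21 and 28 (morula to early, early to late, whole span). For early to late it was 13 with the filter at 5 deposited units (fewer genes tested). It was 13 in control libraries alone and 12 in Tdgf1 siRNA libraries alone (2 libraries a stage, with the spread of all 12). Leaving out each library in turn gave 18 to 21, 17 to 22 and 23 to 29, and averaging same-numbered libraries 18, 17 and 26. For the siRNA comparisons the count was 0 in every alternative. Calls not made in control libraries alone include Mpc1, Dlat and Dld in the first step and Mpc2 and Pdhb in the second, and calls not made in Tdgf1 siRNA libraries alone include Pfkl in the first and Dlat and G6pdx in the second. With no filter, Pfkfb3 (lower) and Aldoc and Pdk1 (higher) were called too, and Ldhb (lower) over the whole span.

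Over all genes, calls fell from 3623 to 1702 (control alone), 1658 (Tdgf1 siRNA alone) and 2204 (same-numbered averaged) in the first step and from 4803 to 2979 and 2539 (each arm alone) in the second. For the siRNA at late blastocyst, 0 became 11 without the filter, 1 in DESeq2 and 1 without late blastocyst Tdgf1 siRNA replicate 2. With stage-and-number pairs as a replicate block, genes called in siRNA comparisons were 5, 5, 3 and 0 in place of 0, and the block gave 0 calls among the 39. A block of the number across stages gave 20, 21 and 28.

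Quantile normalization, and edgeR and DESeq2, which change the scaling and the model together, moved the median change of all genes over the whole span from 0.13 to -0.07, 0.00 and -0.01, and the share of calls that were higher from 60% to 46.6%, 51.1% and 50.3%. Among the 39 genes the split of higher and lower went from 20 and 8 to 19 and 8 under each, and in the second step from 12 and 9 to 10 and 9 (quantile), 9 and 11 (edgeR) and 10 and 11 (DESeq2). Genes of a few reads, such as Pdk1 and Pklr, are limited by depth.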

Other observations

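The early blastocyst libraries numbered 1 and 2 differed in the genes of glucose use in both siRNA arms. Relative to those numbered 2, the libraries numbered 1 held 2.29 times the Hk2 RNA (121.5 and 128 against 48.1 and 61.2 CPM), 1.98 times the Pfkp RNA, 1.83 times that of Slc2a1, 1.80 times that of Tpi1 and 1.79 times that of Pkm. They held 0.634 times the Fbp2 RNA (446 and 422 against 688 and 681 CPM), 0.647 times that of Pdk3 and 0.664 times that of Hk1. Slc2a8 and Mpc1 differed least, at 1.001 and 1.01 times. The trophectoderm marker sum was 3690 and 3429 against 1652 and 1759 CPM, and the epiblast sum 782 and 894 against 797 and 838 CPM. Markers of cells outside the embryo were lower in the libraries numbered 1, with 14.6 and 9.03 against 29.9 and 40.3 CPM for blood and 11.8 and 14.6 against 22 and 20.8 CPM for cumulus and granulosa. These libraries are 2 against 2 within a stage, the split was noticed in the data, and no test was made.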
